A study of Homo sapiens with 6 samples.

Results

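The genes described here encode the machinery that displays peptides on major histocompatibility complex (MHC) class I molecules. They were chosen by name: the class I heavy chains HLA-B, HLA-C, HLA-E and HLA-F, their light chain B2M, the peptide transporter subunits TAP1 and TAP2, and the immunoproteasome subunits PSMB8 and PSMB9. All 9 were found among the 24494 gene symbols of the array table, and 8 of the 9 were among the 12541 genes compared after low values were removed. HLA-B did not pass that filter, so its values are given without the main limma test used for the others. The samples are 6 subcutaneous tumours of 1205Lu, a human metastatic melanoma cell line, grown in NSG mice for about 6 weeks. NSG mice lack mature lymphocytes and natural killer cells but keep other host cells, such as myeloid cells, endothelium and fibroblasts. In 3 tumours the cells carried a non-target short hairpin RNA (control), and in the other 3 a short hairpin RNA against Shp2 (knockdown), with no other agent or allele named. The labels do not say whether the hairpin lines were clones, whether more than one hairpin was used, or whether each tumour came from its own mouse. The p-values therefore measure only the spread between these samples.

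A class I molecule is a heavy chain joined to B2M and a short peptide. The peptides are cut from cellular proteins by the proteasome, moved into the endoplasmic reticulum by the TAP1-TAP2 transporter, trimmed there and loaded onto the heavy chain. Interferon induces most of these genes, and PSMB8 and PSMB9 are the inducible catalytic subunits that replace constitutive ones in the immunoproteasome. In melanoma, loss of class I display is a known route of escape from cytotoxic T cells.

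The promoter sequences below are marked for simple letter patterns of elements through which interferon, NF-kB and class I factors are known to act. They are RefSeq reference sequences of build GRCh38.p14, found for 8 of the 9 genes (10 transcript starts), and HLA-E had no entry. Only the bases ahead of the transcript start were searched, 250 per start, on both strands. Capitals mark the core of the interferon-stimulated response element (GAAA, any 2 bases, GAAA), a kappaB pattern (GGG, any 2 bases, TT, any base, CC) and a CCAAT box pattern (CTGATTGG, its inverted form). Each was marked on either strand, and adjoining capitals are overlapping matches. Only these patterns were searched, so an unmarked stretch, in HLA-B or elsewhere, can still hold a variant form of an element.
B2M, chr15:44711358-44711489 (+ strand): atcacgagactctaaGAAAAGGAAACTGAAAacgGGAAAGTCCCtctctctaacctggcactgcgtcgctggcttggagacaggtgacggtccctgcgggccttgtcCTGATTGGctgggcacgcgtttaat
TAP1, chr6:32853752-32853853 (- strand): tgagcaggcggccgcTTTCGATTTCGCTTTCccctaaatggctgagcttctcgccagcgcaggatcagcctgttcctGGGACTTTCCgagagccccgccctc
TAP2, chr6:32838773-32838812 (- strand): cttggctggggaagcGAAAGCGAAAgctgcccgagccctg
HLA-F, chr6:29723263-29723401 (+ strand): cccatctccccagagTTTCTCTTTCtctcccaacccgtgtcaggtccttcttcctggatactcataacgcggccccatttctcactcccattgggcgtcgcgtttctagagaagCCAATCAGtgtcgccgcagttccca
HLA-B, chr6:31357211-31357371 (- strand): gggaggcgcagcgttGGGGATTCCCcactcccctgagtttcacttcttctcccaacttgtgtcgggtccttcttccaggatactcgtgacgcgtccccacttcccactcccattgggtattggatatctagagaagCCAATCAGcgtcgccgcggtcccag
HLA-C, chr6:31272124-31272163 (- strand): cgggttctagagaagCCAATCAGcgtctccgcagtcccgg
The response element core was found ahead of B2M, HLA-F, TAP1 and TAP2, in 4 of the 10 searched windows, against 3.02% of 35116 such windows of all genes. In B2M and in TAP1 there were overlapping matches, with first bases 144 and 138 upstream of the start in B2M and 134 and 128 upstream in TAP1. The kappaB pattern was found ahead of HLA-B, B2M and TAP1, against 5.07% of all windows. The CCAAT box pattern was found ahead of HLA-B, HLA-C, HLA-F and B2M, against 3.81% of all windows. It was inverted (CTGATTGG) in B2M and direct (CCAATCAG) in HLA-B, HLA-C and HLA-F. These matches are letters in the reference, not measured sites. The patterns were chosen after these sequences were seen, so their shares beside those of all windows are no test. On chromosome 6 the genes lie in the order HLA-F, HLA-E, HLA-C, HLA-B, TAP2, PSMB8, TAP1 and PSMB9, and B2M lies on chromosome 15.

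Values are GCRMA values read as log2, and differences are knockdown minus control. PTPN11, which encodes SHP2, checked the labels: control tumours 1 to 3 read 8.47, 8.76 and 9.05, and knockdown tumours 1 to 3 read 6.92, 6.34 and 6.88. It was the only gene of the 12541 called (limma difference -2.05, adjusted p = 0.0342), and the call was lost when any array but control 1 was left out (adjusted p from 0.0961 to 0.267). As a reference for background, each array was given a floor, the value that 95% of its negative control features did not exceed. Of 14 melanoma markers, S100B, SOX9 and AXL were among the 4 above the floor in all 6 arrays, whereas 9, the pigment lineage genes MITF and MLANA among them, were above it in none. Array control 1 stood apart: its contrast of positive over negative control features was 3.45, against 3.76 to 4.01 in the other 5 arrays.

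All 9 genes had a higher mean in the knockdown tumours, and none passed the test. The median difference over the 9 was 0.29, and the differences ran from 0.10 for B2M to 0.45 for PSMB8. Over all 12541 genes the median difference was 0.05, and 62% of genes had a higher mean in the knockdown tumours. Of the 8 genes tested, 0 passed the adjusted threshold of 0.05 in limma, where the background was 0.00797% of genes called, and 1, TAP1, had an unadjusted p under 0.05, where the background was 2.54%. The 2 groups overlapped for each of the 9 genes, while the background share of genes with all knockdown values above all control values was 3.86%. The contrast of control features was 3.45 to 3.96 in control arrays and 3.76 to 4.01 in knockdown arrays. With that contrast as a covariate the median of the 9 was 0.08, that of all genes was -0.03, and 42.6% of all genes had a positive difference. Its part in the class I values was otherwise not tested. In bulk tumours more expressing cells and more RNA per cell cannot be told apart.

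**Figure D1:**
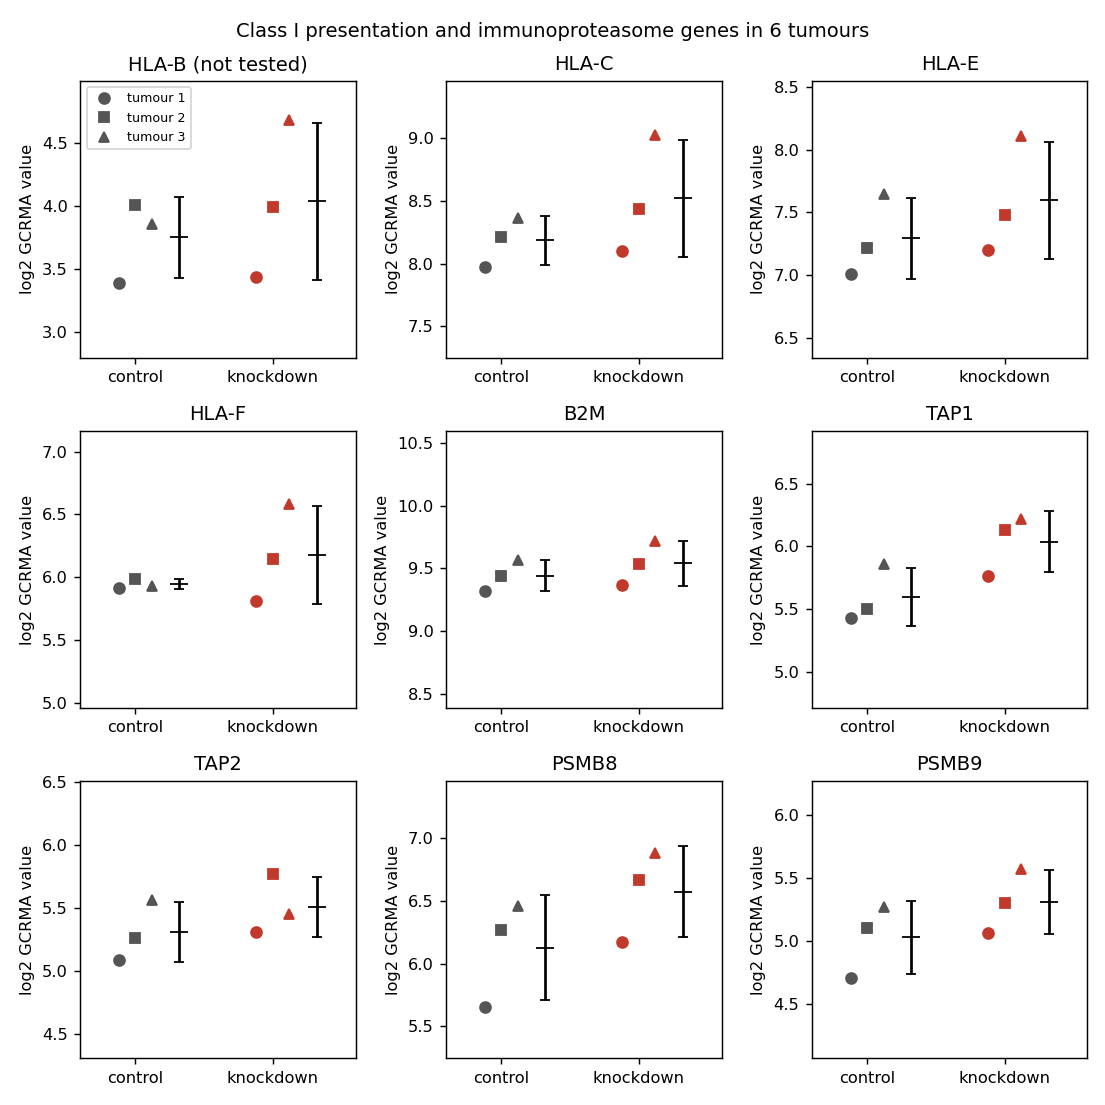
log2 GCRMA values (y axis, spanning the same number of log2 units in each panel) of the 9 genes in control (grey) and knockdown (red) tumours, with symbols for tumours 1, 2 and 3 and, beside them, the mean with its SD (n = 3). Knockdown tumour 3 is the highest value in 8 of the 9 panels, and the groups overlap in each panel.

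The heavy chains present the peptide. HLA-C, a classical heavy chain recognised by T cells and by natural killer cell receptors, read 7.97, 8.21 and 8.36 in controls 1 to 3, against 8.10, 8.44 and 9.02 in knockdown tumours 1 to 3. Knockdown tumours 2 and 3 lay above all controls, and knockdown tumour 1 lay between control tumours 1 and 2. The difference was 0.33 (SE 0.24), a fold of 1.26 with a 95% interval of 0.876 to 1.815 (limma unadjusted p = 0.187, adjusted p = 1). The group SDs were 0.20 in control and 0.47 in knockdown tumours (n = 3 each), so the difference was smaller than the spread between knockdown tumours.

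HLA-E, a nonclassical heavy chain that shows signal peptides of other class I chains to natural killer receptors, was 7.01, 7.22 and 7.65 in control and 7.20, 7.48 and 8.11 in knockdown tumours. Only knockdown tumour 3 lay above all controls. The difference was 0.30 (SE 0.25), a fold of 1.23 with an interval of 0.834 to 1.83 (limma adjusted p = 1). HLA-F, a nonclassical heavy chain that can be displayed without peptide, was 5.92, 5.99 and 5.93 in control and 5.81, 6.14 and 6.59 in knockdown tumours. Its control tumours spanned 0.07 and its knockdown tumours 0.78, with knockdown tumour 1 the lowest of the 6. The difference was 0.23 (SE 0.20), a fold of 1.18 with an interval of 0.859 to 1.61 (limma adjusted p = 1).

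HLA-B, the other classical heavy chain of the set, was represented by a single feature that exceeded the floor in 0 of the 6 arrays. Its values were 3.39, 4.01 and 3.86 in control and 3.44, 3.99 and 4.69 in knockdown tumours. Knockdown tumours 1 and 2 lay within the control range and knockdown tumour 3 above it. The difference, which the main limma test did not cover, was 0.29. The exact two-sided permutation test of that difference gave p = 0.5, where 3 tumours against 3 allow no p below 0.1. HLA-B, HLA-C and the other class I chains are highly similar and polymorphic, and a feature built on one allele need not read another. How far these features are specific in 1205Lu was not tested.

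B2M, the invariant light chain without which class I molecules do not reach the cell surface, was 9.32, 9.44 and 9.57 in control and 9.37, 9.53 and 9.72 in knockdown tumours. The groups were interleaved, with only knockdown tumour 3 above all controls. Its difference of 0.10 (SE 0.16) was the smallest of the set, a fold of 1.07 with an interval of 0.829 to 1.38 (limma unadjusted p = 0.571, adjusted p = 1).

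TAP1 and TAP2 form the transporter that carries peptides into the endoplasmic reticulum. TAP1 was 5.43, 5.50 and 5.86 in control and 5.76, 6.13 and 6.22 in knockdown tumours. Knockdown tumours 2 and 3 lay above all controls, and knockdown tumour 1 lay just below control tumour 3. The difference was 0.44 (SE 0.19), a fold of 1.36 with an interval of 1.01 to 1.82 (limma unadjusted p = 0.0417, adjusted p = 1), and it was 1.87 times the pooled SD of the groups, the largest such ratio of the 9 genes. TAP2 was 5.09, 5.26 and 5.56 in control and 5.31, 5.77 and 5.45 in knockdown tumours. It was the only gene of the set whose highest value was in knockdown tumour 2, and the only one lower in knockdown tumour 3 than in control tumour 3 (by -0.11, knockdown minus control). The difference was 0.20 (SE 0.19), a fold of 1.15 with an interval of 0.858 to 1.55 (limma adjusted p = 1).

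PSMB8 and PSMB9 cut proteins in the immunoproteasome, which favours peptides with ends that fit class I grooves. PSMB8 was 5.66, 6.27 and 6.46 in control and 6.17, 6.66 and 6.88 in knockdown tumours. Control tumour 1 was the lowest by 0.52 below knockdown tumour 1, and knockdown tumours 2 and 3 lay above all controls. The difference was 0.45 (SE 0.25), a fold of 1.36 with an interval of 0.926 to 2.00 (limma unadjusted p = 0.104, adjusted p = 1). PSMB9 was 4.71, 5.10 and 5.27 in control and 5.06, 5.30 and 5.57 in knockdown tumours, above the floor in 3 of the 6 arrays. The order of the arrays was the same as for PSMB8 within each group, and the difference was 0.28 (SE 0.20), a fold of 1.22 with an interval of 0.889 to 1.66 (limma adjusted p = 1).

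The 9 genes shared an order of the tumours that crossed the groups. Control tumour 1 was the lowest control for 9 of 9 genes, against 61.5% of all genes compared, and knockdown tumour 1 was the lowest knockdown tumour for 9 of 9, against 56%. Knockdown tumour 3 was the highest knockdown tumour for 8 of 9, against 33.9% of all genes, and the highest of all 6 tumours for 8 of 9, against 17.5%. Control tumour 1 was the lowest of all 6 for 8 of 9, against 45.9%, the exception being HLA-F. With each gene centred on its own mean, the mean over the 9 was -0.39, -0.11 and 0.06 over controls 1 to 3, against -0.20, 0.16 and 0.47 over knockdown tumours 1 to 3. Knockdown tumour 1 thus lay below control tumours 2 and 3, and the distance between knockdown tumours 1 and 3 was larger than the median difference between the groups. Over the 6 arrays the values of each of the 36 pairs of genes were positively correlated (median Pearson r 0.87, from 0.33 to 0.99). After the group means were removed, all 36 stayed positive (median 0.87, from 0.15 to 0.98). These correlations describe 6 arrays that also share hybridisation and normalization. Pairs among all genes were not computed, so whether such values are particular to these genes was not tested.

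**Figure D2:**
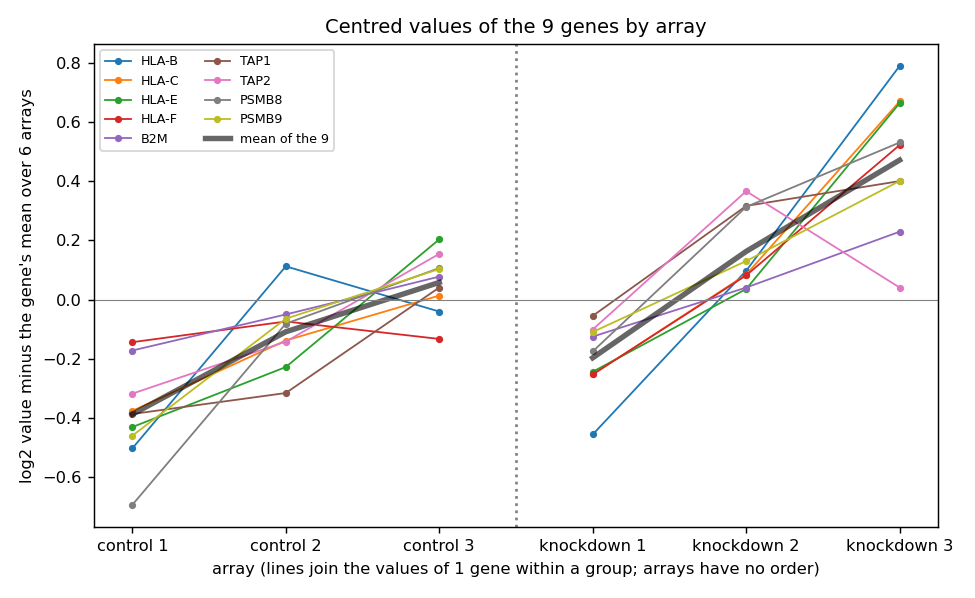
log2 value of each gene minus its mean over the 6 arrays (y axis) by array (x axis), with lines joining the arrays of a group and a thick line for the mean of the 9 genes. The mean is lowest in control 1 (-0.39) and highest in knockdown 3 (0.47), and knockdown 1 (-0.20) lies below control 3 (0.06).

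Leaving out single tumours showed how much of the difference they carried. Without knockdown tumour 3 the median difference of the 9 genes was 0.08, and the difference was 0.08 for HLA-C, 0.05 for HLA-E, 0.03 for HLA-F, 0.01 for B2M and -0.04 for HLA-B. The same omission left 0.35 for TAP1, 0.24 for TAP2, 0.29 for PSMB8 and 0.15 for PSMB9. Other omissions moved these genes more: without control tumour 1 PSMB8 was at 0.21, PSMB9 at 0.12 and TAP2 at 0.10, and without knockdown tumour 2 TAP2 was at 0.07. Without control tumour 1 the median was 0.16 and without knockdown tumour 1 it was 0.50. For TAP1 the difference ran from 0.35 to 0.58 over the 6 omissions.

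**Figure D3:**
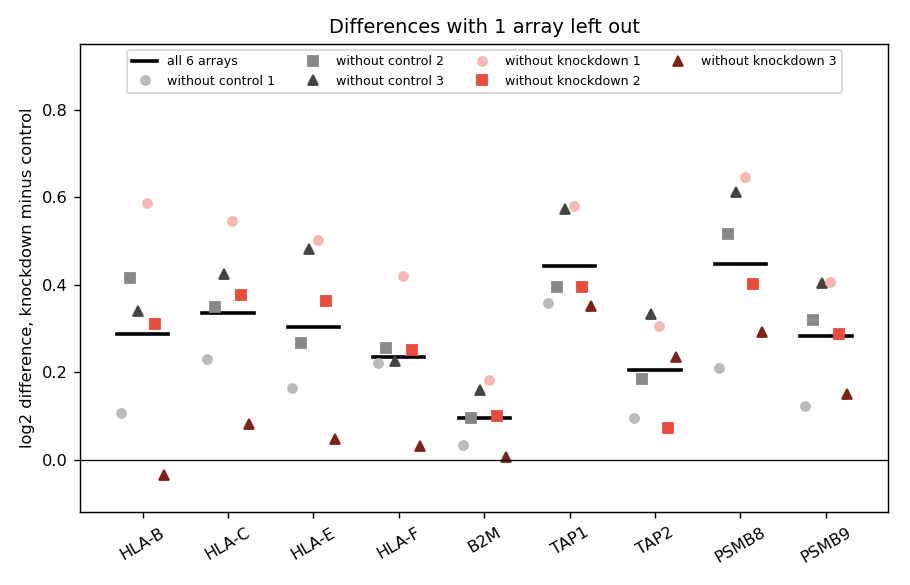
log2 difference, knockdown minus control (y axis), of each gene with all 6 arrays (black bar) and with each array left out (symbols, offset sideways for clarity). The dark red triangles, without knockdown tumour 3, sit near 0 for the heavy chains and B2M (-0.04 to 0.08) and between 0.15 and 0.35 for TAP1, TAP2, PSMB8 and PSMB9.

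Genes of the MHC region appeared in several rows of the table, many of them annotated to alternate haplotypes. The 9 genes had 50 rows, and because rows repeated each other these held 28 distinct sets of values. Every row had a higher mean in the knockdown tumours (28 of 28 distinct sets, differences from 0.02 to 0.50), against 61.7% of the 13407 rows that passed the filter. Sets of a gene are not independent, so they add little to the count over the 9 genes. The 13407 rows were not reduced to distinct sets. Of the 49 rows that passed, 0 were called when each row was tested singly, where the background was 0.00746%. B2M had 1 row, with a transcript quoted at chr15:45003675-45011075 (GRCh37), and HLA-B had 1.

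HLA-C had 7 rows, all distinct, whose means over the 6 arrays ran from 6.42 to 8.35. All 7 were highest in knockdown tumour 3 and lowest in control tumour 1, with differences from 0.31 to 0.50 and unadjusted p-values from 0.107 to 0.198. The 2 highest HLA-C rows differed by 0.11 in each of the 6 arrays, so their differences between groups are one measurement. HLA-E had 11 rows in 3 sets. Sets of 3 and 4 rows gave nearly the same values (differences 0.30 for both), while another set of 4 rows was 4.93, 5.99 and 5.46 in control and 5.74, 5.36 and 5.61 in knockdown tumours. In that set control tumour 2 was the highest, and the difference was 0.11 (limma unadjusted p = 0.681). HLA-F had 2 rows, with differences of 0.23 and 0.18.

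TAP1 had 8 rows in 2 sets (differences 0.44 for 7 rows and 0.38 for 1, unadjusted p = 0.0418 and 0.0559 in the test of rows). PSMB8 had 8 rows in 2 sets that differed by less than 0.01 in the group comparison (0.45 for 7 rows and 0.44 for 1). PSMB9 had 4 rows in 3 sets, with differences of 0.28, 0.13 and 0.16, and the latter 2 sets exceeded the floor in 0 arrays. TAP2 had 8 rows in 7 sets. Knockdown tumour 2 was the highest in 7 of 7 of them. The 5 TAP2 sets under the floor in each array ran from 4.10 to 4.61 and had differences from 0.02 to 0.17, and the other sets had 0.20 and 0.25.

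**Figure D4:**
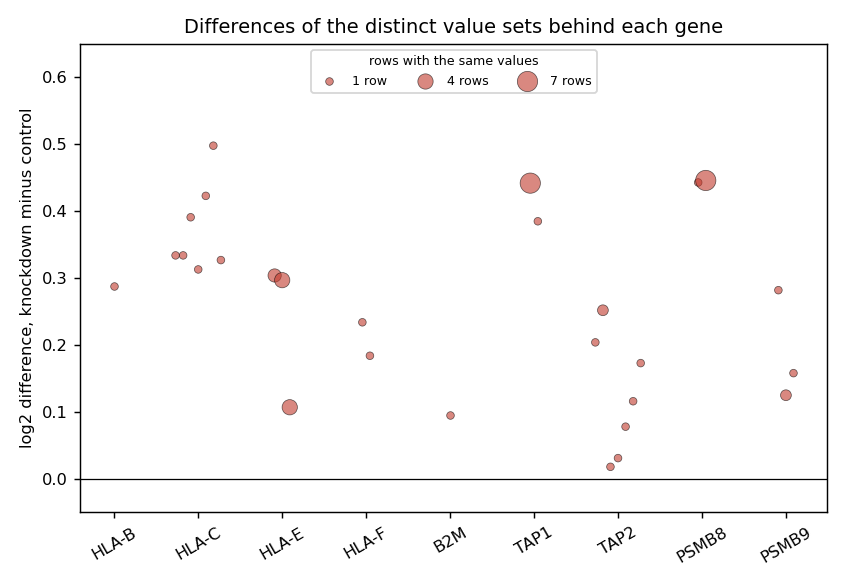
log2 difference, knockdown minus control (y axis), of each distinct set of values behind each gene (x axis), with the circle's area in proportion to the number of rows that hold the same values. All 28 circles lie above 0, from 0.02 in a TAP2 set to 0.50 in an HLA-C set, and circles of a gene are not independent.

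Of the other listed genes of the class I pathway none passed the test. Their counts are to be read against the 62% of all genes with a positive difference and the 0.00797% called. For peptide loading, 3 of 5 listed genes passed the filter, 0 were called, and the median difference was 0.17. The chaperone calreticulin, CALR, differed by 0.23 (SE 0.22), calnexin, CANX, by 0.15 (SE 0.16) and tapasin, TAPBP, which bridges the heavy chain to the transporter, by 0.17 (SE 0.21). For peptide trimming, 7 of 7 genes passed the filter, 0 were called, 6 had positive differences and the median was 0.18.

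ERAP2, an aminopeptidase that trims peptides in the endoplasmic reticulum, was 6.83, 6.89 and 7.14 in control and 7.28, 7.57 and 7.54 in knockdown tumours. Its groups did not overlap, unlike those of the 9 genes. All its knockdown values lay above all control values, as in 3.86% of all genes, and the difference was 0.51 (SE 0.17, limma unadjusted p = 0.0116, adjusted p = 1). Its partner ERAP1 was 4.71, 5.21 and 5.07 in control and 5.43, 5.51 and 5.43 in knockdown tumours, also without overlap, and the difference was 0.46 (SE 0.17, limma unadjusted p = 0.0231, adjusted p = 1). ERAP1 was above the floor in 3 arrays, those of the knockdown tumours, and under it in all control arrays. In knockdown tumour 1 it read 5.43 against a floor of 5.426. The cytosolic peptidases NPEPPS and THOP1 differed by 0.18 (SE 0.15) and 0.19 (SE 0.17). The groups of NPEPPS did not overlap either, which made 3 of the 7 trimming genes.

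Among proteasome partners, 7 of 7 genes passed the filter, 0 were called, 7 had positive differences and the median was 0.18. The constitutive catalytic subunits that the immunoproteasome replaces, PSMB5, PSMB6 and PSMB7, differed by 0.26 (SE 0.21), 0.31 (SE 0.23) and 0.18 (SE 0.17), and the assembly factor POMP by 0.22 (SE 0.17). Those values stood beside 0.45 for PSMB8 and 0.28 for PSMB9.

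Among 16 regulators of class I genes, 0 were called, 12 had positive differences, a share near that of all genes, and the median was 0.14. RFX5, RFXAP and RFXANK, the subunits of the complex that binds class I and class II promoters, differed by 0.46 (SE 0.21), 0.25 (SE 0.15) and 0.23 (SE 0.16), each with all knockdown values above all control values, as in 3.86% of all genes. STAT2, an interferon signalling factor above the floor in 0 arrays, was lower without overlap (difference -0.09, SE 0.14). Of all 12541 genes, 836 had groups without overlap in either direction, and 484 of those were higher in knockdown tumours. RFX5 was above the floor in 1 array, RFXAP in 0 and RFXANK in 4. IRF1, an interferon-induced activator of these promoters, differed by 0.38 (SE 0.23) and was above the floor in 0 arrays. Among class I related genes 6 of 10 passed the filter and 0 were called, with a median of 0.25. The nonclassical heavy chain HLA-G was 5.31, 5.79 and 5.71 in control and 5.79, 6.08 and 6.77 in knockdown tumours (difference 0.61, SE 0.25, limma unadjusted p = 0.036, adjusted p = 1). HFE, a class I-like regulator of iron uptake, differed by 0.41 (SE 0.18), the natural killer receptor ligand ULBP3 by 0.46 (SE 0.23) and the ligand MICA by 0.09 (SE 0.16). HLA-G and MICA were above the floor in 5 arrays, HFE in 3 and ULBP3 in 0. For HLA-G and HFE all knockdown values also lay above all control values. For HLA-G this rested on the third decimal, with control tumour 2 at 5.792 and knockdown tumour 1 at 5.793.

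**Figure D5:**
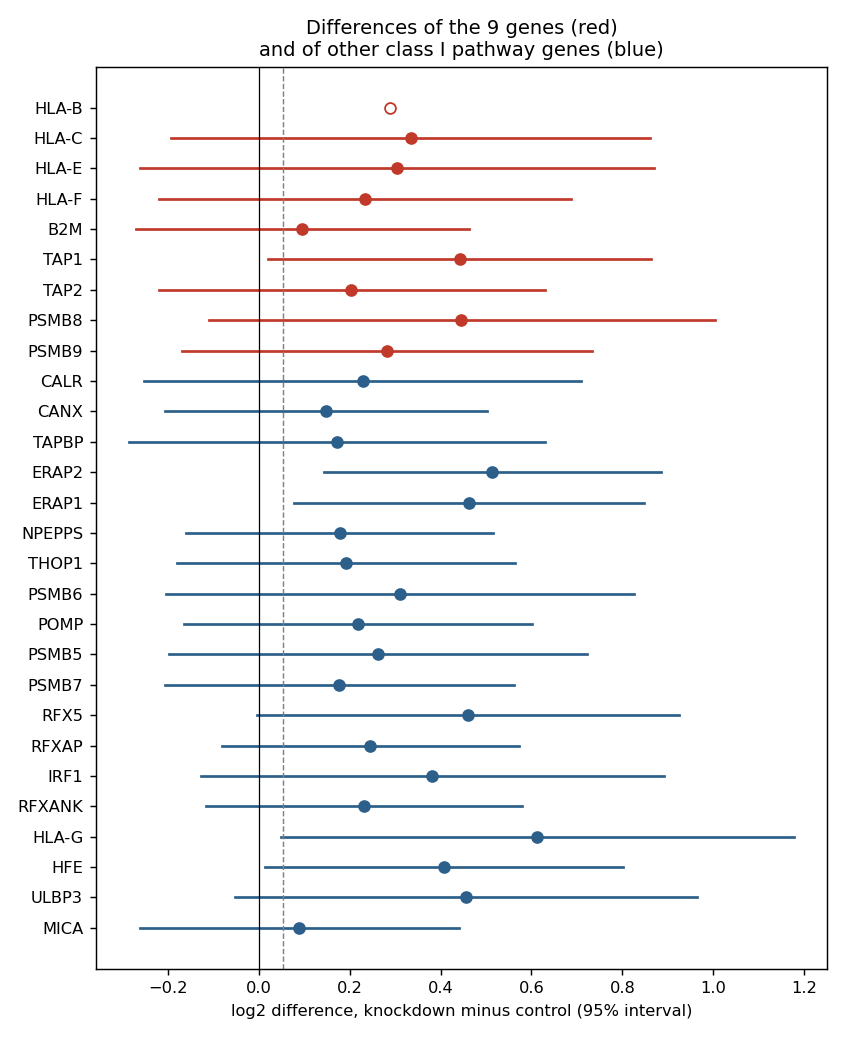
log2 difference, knockdown minus control (x axis), with 95% intervals of the limma fit for the 9 genes (red, HLA-B open and without interval) and for named genes of the other class I lists (blue). The dashed line is the median of all genes, 0.05. The intervals of TAP1, ERAP2, ERAP1, HLA-G and HFE exclude 0 before adjustment, and none of the genes drawn passed after it.

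Interferon-induced genes outside the class I set had 23 listed members, of which 12 passed the filter. Of those 12, 0 were called, 12 had positive differences, against 62% of all genes, and the median was 0.36. Knockdown tumour 3 was the highest knockdown tumour for 9 of 12, against 33.9% of all genes, and control tumour 1 the lowest control for 9 of 12, near the 61.5% of all genes. SAMD9L differed by 0.54 (SE 0.15), IFI35 by 0.39 (SE 0.15), IFI27 by 0.43 (SE 0.17) and OAS2 by 0.42 (SE 0.22). For SAMD9L, IFI35 and IFI27 all knockdown values lay above all control values, as in 3.86% of all genes. SAMD9L was above the floor in 4 arrays, IFI35 in 2, and IFI27 and OAS2 in 0, and 14 of the 23 listed genes were above it in no array. By Pearson r over the 6 arrays, the genes closest to the mean of the 9 included MRPS7, a mitochondrial ribosomal protein (r = 0.996), and AHCYL1, a regulator of calcium release (r = 0.994). These are descriptions over 6 arrays that share processing.

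Class II genes and markers of host cells were mostly at background. For class II, 12 of 12 genes were above the floor in 0 arrays, including the invariant chain CD74 (difference 0.02, SE 0.18) and HLA-DMB (difference -0.09, SE 0.15). Of 19 leukocyte markers, 18 were above it in 0 arrays, among them PTPRC, CD14 and CSF1R, and NKG7 and C1QC differed by 0.07 (SE 0.15) and 0.00 (SE 0.23). The exception was CD68, a lysosomal gene of macrophages that other cells also express. CD68 was 6.72, 7.54 and 7.63 in control and 7.11, 7.67 and 8.36 in knockdown tumours. Its lowest tumour was control 1 and its highest knockdown 3, each as in 8 of the 9 genes. The summed linear level of the leukocyte list was 275 to 351 in control and 286 to 503 in knockdown tumours. CD68 was the largest term of that sum in each array, so the range largely follows that 1 gene. The part of the leukocyte list in the class I values was not tested, and how mouse transcripts are read by these human features was not tested. Of 7 endothelial markers 0 were above the floor in any array, with CLDN5, CDH5 and TEK the highest at 4.51, 4.16 and 3.33 in control tumours, and the summed level was 72 to 82 in control and 76 to 79 in knockdown tumours. Of 10 fibroblast, muscle and fat markers 1 was above it in any array, PDGFRB (difference 0.03, SE 0.21), while ACTA2 and DES, above it in 0 arrays, differed by 0.29 and 0.06, and the summed level was 218 to 224 and 194 to 261. Of 6 keratinocyte markers, with KRT14, KRT5 and KRT10 the highest, 0 were above it, and the summed level was 33 to 41 and 34 to 39. Of 14 melanoma markers 7 passed the filter, 0 were called, 3 had positive differences and the median was -0.20. S100A1, above the floor in 0 arrays, differed by -0.47 (SE 0.21, limma unadjusted p = 0.0465, adjusted p = 1), MCAM by -0.34 and SOX10 by -0.20, and the markers of highest level, S100B, SOX9 and AXL, by -0.25 (SE 0.27), 0.09 (SE 0.20) and 0.13 (SE 0.24). Among 10 heat shock and immediate early genes, used as signs of RNA handling, 9 passed the filter, 0 were called, 6 had positive differences and the median was 0.10. The immediate early gene EGR1 had the largest difference of them, 0.41 (SE 0.18, limma unadjusted p = 0.0488, adjusted p = 1), about as large as those of TAP1 and PSMB8, and its part in the class I values was not tested. FOSB, above the floor in 0 arrays, differed by 0.14, with all knockdown values above all control values, as in 3.86% of all genes. HSPA8, HSPH1 and HSPA1B differed by 0.03 (SE 0.17), 0.11 (SE 0.25) and -0.14 (SE 0.24).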

How the data were processed

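Total RNA of 6 xenograft tumours, extracted with Trizol, was biotin-labelled for Affymetrix arrays, per the labels' protocols. The authors deposited values made with GCRMA, per the submitters' processing notes. The sources used here do not state their scale or the array design, and the deposited values were read as log2 from their range. Some feature descriptions quote GRCh37. The annotated table and the series value table were the same in each cell (largest difference 0). Of 53617 features, 26419 carried a single symbol. Each gene was represented by its row of highest mean, and a filter requiring 3 or more of the 6 arrays above 4 left 12541 genes. Levels were set against 3575 negative control features, at their 95th percentile in the same array.

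Groups were compared with limma 3.58.1 (lmFit, eBayes, no covariate) in R 4.3.3, two-sided, with Benjamini-Hochberg adjustment over all genes kept and a threshold of 0.05. Rows were also tested singly over 13407 rows. Standard errors of differences had a median of 0.19, and the number of arrays limits the precision. The test was checked on simulated data. Arrays correlated at 0.96 to 0.983.

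The members and lists were chosen with earlier results of these data known, and the promoter motifs after the sequences were seen. The genes named are the 9 members, PTPN11, up to 4 genes of smallest p per pathway list, the 3 markers of highest level per marker list, and the 3 genes most correlated with the members, of which 1 is not reported here. PTPRC, CD14, CSF1R, MITF, MLANA, S100A1, MCAM, SOX10, EGR1, FOSB, STAT2 and PSMB10 were named after their values were seen. The alternatives were other filters, row choices, normalizations, variance models, a replicate block, a covariate for the control contrast and left-out arrays.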

Additional observations from a re-analysis of the deposited data

How the results depend on the processing

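For the 9 genes, 0 passed the threshold under any of the alternatives tried. Other filters, the test of single rows, the series value table, the trend and robust variance models and the replicate block left each difference unchanged. Under those alternatives the direction could not change, and with them counted 187 of 189 differences kept their direction. The exceptions were HLA-B without knockdown 3 (-0.035, with 0.588 at the other end of its range without knockdown 1) and B2M with the control contrast as a covariate (-0.000364). The lowest adjusted p of any of them was 0.626. The median difference of the 9 stayed positive, from 0.08 to 0.50 with 1 array left out, and was 0.41 without both arrays numbered 1. PTPN11 missed the threshold with no filter on low values (difference -2.05, adjusted p = 0.079), after quantile normalization (-2.09, 0.0766) and with the covariate (-2.13, 0.0592). With 1 array left out its difference ran from -2.19 to -1.86. The count of genes called was 0 with no filter, after quantile normalization and with the covariate, 2 without both arrays numbered 1, and 0 to 1 with 1 array left out (1 only without control 1). Same-numbered tumours did not all deviate together (r of 0.42, -0.03 and 0.17 for numbers 1, 2 and 3, and control 3 correlated best with knockdown 2, at 0.33), and no label says what the numbers mark, so the tumours were not treated as pairs. Whether number 1 marks a shared batch was not tested. With a replicate block the count was 5 genes, and 0 of the 9. The blocked difference of PTPN11 was -2.05 (adjusted p = 0.00128). The causes were not tested. HLA-B, TAP2 and PSMB9 lie near the negative control level, which limits what their values can show. TAP1 and PSMB8 were above the floor in 5 of the 6 arrays. In control tumour 1, their lowest array, they read 5.43 and 5.66 under a floor of 5.90, so the same limit holds there.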

Other observations

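The balance of immunoproteasome over constitutive subunits, taken within each array as a log2 difference, was compared after the data were seen. PSMB8 minus PSMB5 was -1.27 ± 0.22 (SD, n = 3) in control and -1.09 ± 0.24 in knockdown tumours, a shift of 0.18 (exact two-sided permutation p = 0.4, 0.6 after Benjamini-Hochberg adjustment over 3 pairs). PSMB9 minus PSMB6 shifted by -0.03 (exact permutation p = 1) and PSMB10, the remaining inducible subunit, minus PSMB7 by -0.14 (exact permutation p = 0.4). These balances overlapped between the groups for each of the 3 pairs, and 3 tumours against 3 allow no p below 0.1. The shift of PSMB10 itself was 0.03 (SE 0.16), against 0.45 for PSMB8.

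In the row-level values, the 4 HLA-E rows that read a lower signal ordered the tumours differently from the other 7 HLA-E rows, although all 11 rows quote the same transcript.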
